A study of Mus musculus with 24 samples.

Results

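Hepatocyte identity is kept by a small set of transcription factors, and 9 of their genes were followed here by name: *Hnf4a*, *Foxa1*, *Foxa2*, *Foxa3*, *Cebpa*, *Cebpb*, *Onecut1*, *Nr5a2* and *Prox1*. They are 9 of the 54733 genes in the deposited tables, and all 9 were among the 11244 genes that averaged at least 1 FPKM over all libraries (FPKM counts sequenced fragments relative to transcript length and library size). Poly(A)-tailed RNA was measured in the livers of male C57BL/6 mice, collected every 4 h and labelled by circadian time (CT). For tissue RNA in general, mice were 8 to 24 weeks old and were collected on the second day of constant darkness; the age of the mice sequenced is not stated separately. WT mice were compared with ΔRRE mice, which lack the pair of REV-ERB/ROR response elements (RREs) upstream of *Bmal1* (listed as *Arntl*) in all tissues after deletion with CRISPR-Cas9. Both genotypes were sampled at CT2, CT6, CT10, CT14, CT18 and CT22, with 2 livers per genotype and time point, 24 libraries in all. ΔRRE mice were kept as separate lines, and line #1 was used unless the study states otherwise, so the 12 ΔRRE libraries may stem from 1 deletion event.

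The factors bind enhancers and promoters of the same liver genes and of each other. HNF4A is a nuclear receptor that activates genes of lipid, bile acid and clotting factor production. FOXA1, FOXA2 and FOXA3 are forkhead proteins, and the former pair can open closed chromatin during liver development. C/EBPα and C/EBPβ are leucine zipper factors: the first supports metabolic genes of the resting liver, the second responds to inflammation, fasting hormones and regeneration. ONECUT1 (HNF6) acts in hepatocytes and bile duct cells, NR5A2 (LRH-1) is a nuclear receptor of bile acid and cholesterol metabolism, and PROX1 is a homeobox factor that often acts as a co-repressor, among others of HNF4A and NR5A2.

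RefSeq (GRCm38.p6) held 14 promoter entries for the 9 genes, each running from 250 bases before to 50 bases after a transcription start. Letters for clock and liver factor sites were searched on both strands. CACGTG, the E-box bound by CLOCK and BMAL1, was found in 1 of these 14 promoters, that of *Onecut1*, against 7.15% of all 32851 promoters in the table. TGTTTAC, a forkhead site, was found in 1 of 14, that of *Foxa1* (on the other strand, so that it reads GTAAACA here), against 3.65% of all promoters. TATAAA was found in 6 of 14, against 13.6%, and in *Foxa3* and *Cebpa* it lay 36 and 30 bases before the start on the strand of the gene. None of the 14 windows held TTATGTAA (D-box, 0.938% of all promoters), the RRE (0.384%), ATCGAT (ONECUT site, 0.925%), TTGCGCAA (C/EBP site, 0.183%), CAAAGTCCA (HNF4 site, 0.475%) or TGACGTCA (cyclic AMP response element, 1.79%). None of the 4 matches printed here overlapped a match to another of these motifs. The matches of *Onecut1*, *Foxa1*, *Foxa3* and *Cebpa* are shown because these genes gave the most variable, the linked, the most rhythmic and the most abundant values below. Each line gives 60 bases on the strand of the gene with the match in capitals, at chr9:74861671-74861730 (plus strand), chr12:57546220-57546279 (minus), chr7:19023543-19023602 (minus) and chr7:35119233-35119292 (plus), in that order.
Onecut1: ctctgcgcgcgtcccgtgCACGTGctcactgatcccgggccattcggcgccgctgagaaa
Foxa1: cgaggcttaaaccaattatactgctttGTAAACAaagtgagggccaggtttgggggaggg
Foxa3: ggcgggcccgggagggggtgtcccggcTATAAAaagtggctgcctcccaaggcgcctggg
Cebpa: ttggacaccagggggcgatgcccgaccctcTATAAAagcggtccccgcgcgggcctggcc

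The label of the mutant was checked first. *Arntl* ranged from 0.0919 FPKM at CT10 to 13.2 FPKM at CT2 over the 12 WT libraries and from 2.096 to 4.213 FPKM over the 12 ΔRRE libraries, and the genotypes did not overlap at any of the 6 time points. The labelled tissue was checked against hepatocyte markers. Of 22 listed, 21 were found under their symbols and all 21 passed the filter. *Alb* led them with 18570 to 35760 FPKM. Relative depth was read from the commonest ratio between low values of 2 libraries, since 1 fragment is worth less FPKM in a deeper library, and it varied 1.46-fold from the shallowest (ΔRRE CT22, second library) to the deepest library.

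All 9 factors were expressed in every library, at levels that spanned more than an order of magnitude. *Cebpa* was the most abundant at 165.6 ± 21.4 FPKM (SD, n = 24), followed by *Hnf4a* at 120.9 ± 18.9 FPKM and *Cebpb* at 82.0 ± 32.3 FPKM. These ranked at the 96.3, 94.9 and 92.9 percentile of the genes tested. *Foxa3* (21.3 ± 8.63), *Prox1* (17.3 ± 4.45), *Foxa2* (13.9 ± 5.76), *Nr5a2* (12.04 ± 2.20), *Onecut1* (9.11 ± 8.29) and *Foxa1* (7.26 ± 3.10 FPKM) were lower. *Cebpa* exceeded *Hnf4a* in 24 of 24 libraries, *Hnf4a* exceeded *Cebpb* in 22 of 24 and *Cebpb* exceeded *Foxa3* in 24 of 24. Below that, *Foxa3* and *Foxa2* each exceeded *Foxa1* in 24 of 24 libraries, but no neighbours in the order did so: *Foxa3* exceeded *Prox1* in 14 of 24, *Prox1* exceeded *Foxa2* in 18, *Foxa2* exceeded *Nr5a2* in 12, *Nr5a2* exceeded *Onecut1* in 17 and *Onecut1* exceeded *Foxa1* in 11. In bulk liver, fewer cells of a type and less RNA per cell cannot be told apart.

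**Figure D1:**
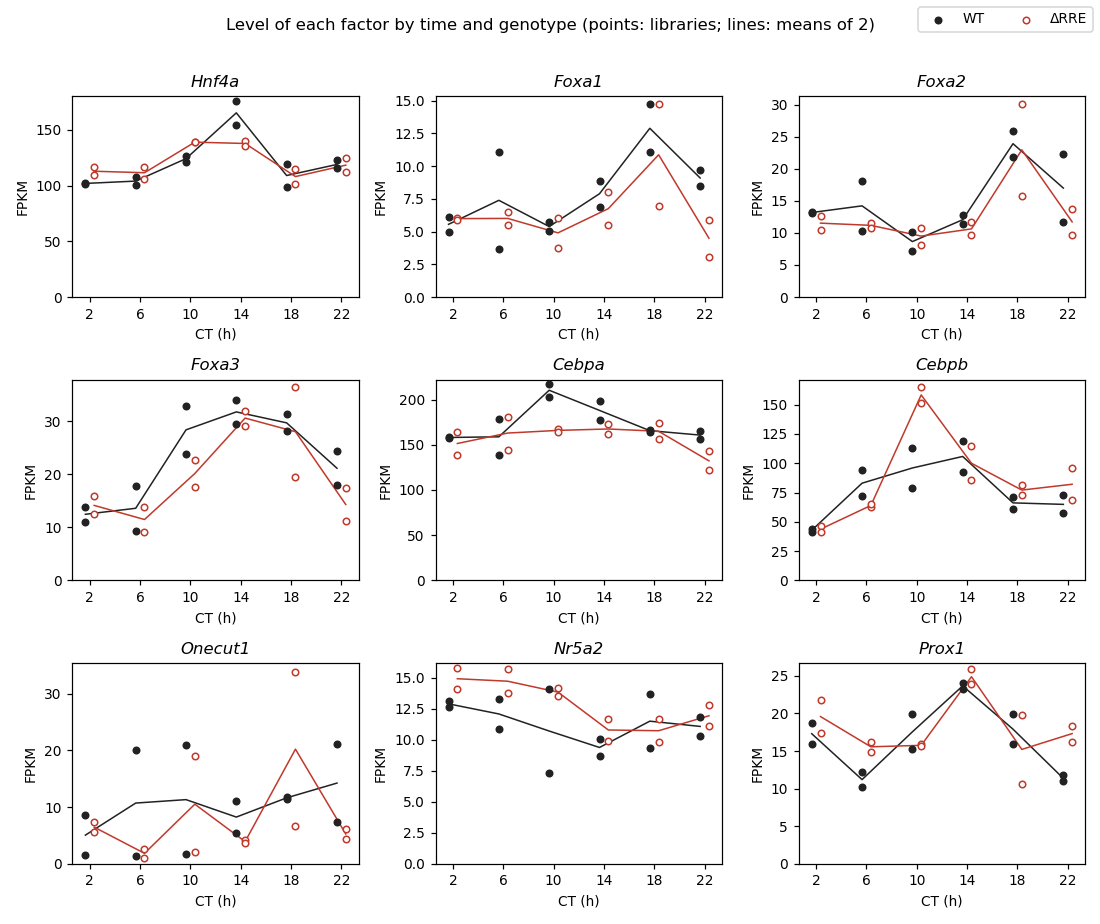
Level of the 9 factors in FPKM (vertical axes, each from 0) against CT in hours, with filled black points for WT and open red points for ΔRRE libraries and lines through the means of 2 libraries. *Foxa3* and *Cebpb* rise from CT2 to CT10 or CT14 in both genotypes, whereas the 2 libraries of a group lie far apart for *Onecut1*.

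The first question was whether these genes cycle over the day. A cosine and a sine of 24 h shared by both genotypes were fitted to log2(FPKM + 0.1) with limma, and 6 of the 9 factors passed an adjusted p under 0.05 (Benjamini-Hochberg over all genes tested): *Foxa3*, *Cebpb*, *Hnf4a*, *Cebpa*, *Foxa2* and *Nr5a2*. Of all 11244 genes tested, 30.6% passed. The median amplitude, the distance from the middle to the peak of the fitted wave, was 0.39 on the log2 scale for the 9 factors and 0.17 for all genes tested. Peaks lay at CT11.7 to CT15.2 for *Cebpa*, *Cebpb*, *Hnf4a* and *Foxa3*, at CT20.0 for *Foxa2* and at CT3.7 for *Nr5a2*.

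*Foxa3*, at chr7:19013284-19023538 (GRCm38, minus strand), had the clearest wave. In WT the 2 libraries gave 11.04 and 13.92 FPKM at CT2, 9.40 and 17.8 at CT6, 23.9 and 32.9 at CT10, 29.5 and 34.1 at CT14, 28.2 and 31.3 at CT18 and 17.9 and 24.4 at CT22. In ΔRRE they gave 12.4 and 15.9 at CT2, 9.20 and 13.8 at CT6, 22.8 and 17.5 at CT10, 32.1 and 29.2 at CT14, 19.6 and 36.5 at CT18 and 17.4 and 11.3 at CT22. Libraries of CT14 were high and those of CT2 low in both genotypes, with no overlap between these time points. The shared amplitude was 0.72 ± 0.09 (SE) on the log2 scale with the peak at CT15.2 (adjusted p = 1.17e-05). The wave was called in WT alone (0.75 ± 0.12, peak CT15.1, adjusted p = 0.00546) and in ΔRRE alone (0.70 ± 0.13, peak CT15.2, adjusted p = 0.0279). The call in WT was lost with time point as a factor (adjusted p = 0.0577), and that in ΔRRE with time point as a factor (0.102), without a filter (0.120) and without CT6, CT10, CT14 or CT18 (adjusted p from 0.0646 to 0.182). It was also lost without any 1 of 5 ΔRRE libraries, with adjusted p = 0.0531 without CT2 replicate 1, 0.0508 without CT6 replicate 1, 0.0769 without CT14 replicate 1, 0.0623 without CT14 replicate 2 and 0.0546 without CT18 replicate 2.

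*Foxa2*, at chr2:148042877-148046969 (minus strand), peaked later than *Foxa3*. Its WT libraries held 13.2 and 13.1 FPKM at CT2, 10.3 and 18.1 at CT6, 7.16 and 10.1 at CT10, 12.7 and 11.4 at CT14, 21.9 and 25.9 at CT18 and 11.7 and 22.3 at CT22. Its ΔRRE libraries held 12.6 and 10.4 at CT2, 11.5 and 10.8 at CT6, 8.16 and 10.8 at CT10, 9.60 and 11.7 at CT14, 15.8 and 30.1 at CT18 and 13.7 and 9.72 at CT22. The CT18 libraries were above all CT10 libraries in both genotypes. The shared amplitude was 0.43 ± 0.11 with the peak at CT20.0 (adjusted p = 0.0194), and the call was lost without CT10 (adjusted p = 0.162) or CT18 (adjusted p = 0.162). In WT alone the adjusted p was 0.124, and it fell to 0.0302 without CT6 replicate 2, 0.0457 without CT22 replicate 1 and 0.0430 without CT6.

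*Foxa1*, at chr12:57540628-57546916 (minus strand), had its highest means at CT18 as well, 11.1 and 14.7 FPKM in WT and 6.98 and 14.7 in ΔRRE. Elsewhere its WT libraries lay between 3.67 and 11.1 FPKM and its ΔRRE libraries between 3.08 and 7.99. The shared amplitude was 0.39 ± 0.14 with the peak at CT17.9, and the wave did not pass (adjusted p = 0.0761). It passed without WT CT6 replicate 2 (adjusted p = 0.0190) and without ΔRRE CT22 replicate 2 (adjusted p = 0.0162), and without CT6 or CT22 altogether (0.0248 and 0.0209). In WT alone it passed without CT6 replicate 2 (adjusted p = 0.00156, against 0.109 with it) and without CT6 (0.00722).

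*Cebpb*, at chr2:167688915-167690418 (plus strand), was lowest at CT2 in both genotypes. In WT the 2 libraries held 44.2 and 41.3 FPKM at CT2, 94.3 and 71.7 at CT6, 79.2 and 113 at CT10, 92.7 and 119 at CT14, 71.5 and 60.8 at CT18 and 57.2 and 72.6 at CT22. In ΔRRE they held 46.3 and 41.2 at CT2, 63.0 and 64.9 at CT6, 152 and 165 at CT10, 115 and 85.3 at CT14, 81.4 and 72.8 at CT18 and 95.7 and 68.5 at CT22. Both ΔRRE libraries were above both WT libraries at CT10 and CT18 and below them at CT6, and the genotypes overlapped at the other times. *Hnf4a* and *Cebpa* also had 3 time points without overlap, and the other factors had 1 or 2. With 2 livers against 2, separation at a time point can arise without a genotype difference. Its share over all genes was not counted, so these counts are a description only. The shared amplitude of *Cebpb* was 0.58 ± 0.10 with the peak at CT12.5 (adjusted p = 0.000401). The wave was called in WT (0.53 ± 0.11, adjusted p = 0.0230), but without CT2 replicate 1, CT2 replicate 2, CT10 replicate 2 or CT14 replicate 2 the adjusted p was 0.0619, 0.0515, 0.0594 and 0.0622. It was 0.0529 with time point as a factor, 0.1002 without a filter and 0.127, 0.0683 and 0.117 without CT2, CT10 and CT14. In ΔRRE the amplitude was 0.63 ± 0.15 (adjusted p = 0.0693), and the wave was called without CT22 replicate 1 (adjusted p = 0.0221), with time point as a factor (0.00902), in 1 fit with a shared spread (0.0205) and without CT22 (0.0159). The opposite strand of the locus holds *Tmem189*, listed at 5.01 to 10.2 FPKM.

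Acute-phase genes, many of which C/EBPβ is known to activate, were set beside *Cebpb*. Their summed level over 18 of 18 listed genes was 24060 and 19260 FPKM at CT10 in ΔRRE against 10700 and 12530 FPKM at CT10 in WT, and the highest sum, 26150 FPKM, was in ΔRRE CT14 replicate 1, beside 8779 FPKM in replicate 2. The WT libraries of CT14, with *Cebpb* at 92.7 and 119 FPKM, had sums of 8312 and 11120 FPKM. ΔRRE CT6 replicate 1, with *Cebpb* at 63.0 FPKM, had a sum of 16550 FPKM. *Hpx*, which encodes the haem carrier hemopexin, was the most abundant at 2798 FPKM on average. Of the 18 genes, 17 had a higher mean in ΔRRE, 12 at an unadjusted p under 0.05 and 0 at an adjusted p under 0.05, with a median log2 difference of 0.34. Over all genes tested, 805 were higher and 197 lower in ΔRRE at an unadjusted p under 0.05, with a median log2 difference of 0.04. The waves of 7 of the 18 (38.9%) passed, beside 30.6% of all genes tested. They were led by *Crp* (amplitude 0.27, adjusted p = 0.000106), *Fga* (0.42), *Apcs* (0.64), *Cp* (0.22) and *Fgb* (0.37). These libraries are examples, and whether the sums follow *Cebpb* over all libraries was not tested. The part of this response in the values of *Cebpb* was not tested either.

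*Cebpa*, at chr7:35119293-35121928 (plus strand), and *Hnf4a*, at chr2:163506808-163572910 (plus strand), had narrow waves. *Cebpa* lay between 138.7 and 217.3 FPKM in WT, with both CT10 libraries highest at 217 and 203 FPKM, and between 121.6 and 181.3 FPKM in ΔRRE, with CT22 lowest on average. Its shared amplitude was 0.16 ± 0.04 with the peak at CT11.7 (adjusted p = 0.0132), and the call was lost with time point as a factor (adjusted p = 0.0773) and without CT10, CT14 or CT22 (adjusted p = 0.117, 0.0518 and 0.0895). *Hnf4a* in WT held 102 FPKM in both libraries of CT2, 108 and 100 at CT6, 127 and 122 at CT10, 176 and 154 at CT14, 99.1 and 119 at CT18 and 115 and 123 at CT22. In ΔRRE it held 110 and 116 at CT2, 106 and 117 at CT6, 139 in both libraries of CT10, 140 and 136 at CT14, 102 and 115 at CT18 and 125 and 112 at CT22. The CT14 libraries of WT were above all other libraries, and in ΔRRE the CT10 and CT14 libraries were above the rest. The shared amplitude was 0.19 ± 0.05 with the peak at CT13.2 (adjusted p = 0.0131). The call was lost without CT2, CT10 or CT14 (adjusted p = 0.0546, 0.0575 and 0.309). In WT alone the adjusted p was 0.108, and it was 0.0301 without CT18 replicate 1, 0.0117 without CT18, 0.0490 after rescaling of the libraries and 0.0472 in 1 fit with a shared spread.

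*Nr5a2*, at chr1:136842571-136960448 (minus strand), peaked earlier in the day than these genes. It was high at CT2, with 12.6 and 13.1 FPKM in WT and 15.8 and 14.1 in ΔRRE, and low at CT14, with 8.70 and 10.1 FPKM in WT and 9.89 and 11.7 in ΔRRE. The shared amplitude was 0.21 ± 0.06 with the peak at CT3.7 (adjusted p = 0.0352). This call was close to the threshold: it held in 15 of 24 fits that left out 1 library and was lost, with adjusted p between 0.0521 and 0.0677, without WT CT2 replicate 1 or 2, CT6 replicate 1, CT14 replicate 1 or CT18 replicate 1, or without ΔRRE CT2 replicate 1, CT6 replicate 2, CT14 replicate 1 or CT18 replicate 2. It was also lost after rescaling of the libraries (adjusted p = 0.0521), without a filter (0.0709), with time point as a factor (0.178) and without CT2, CT6, CT14 or CT22 (adjusted p from 0.0506 to 0.217). In WT alone the adjusted p was 0.456. In ΔRRE alone it was called at an adjusted p of 0.0485, which exceeded 0.05 without any 1 of the 12 ΔRRE libraries (up to 0.131, without CT18 replicate 2).

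*Prox1*, at chr1:190118035-190170714 (minus strand), was highest at CT14 in both genotypes, with 23.3 and 24.1 FPKM in WT and 23.9 and 25.9 FPKM in ΔRRE. The WT libraries of CT6 and CT22 held 10.2 to 12.2 FPKM, and the ΔRRE libraries of these times held 14.9 to 18.4. The adjusted p was 0.195 for the shared wave and 0.0108 with time point as a factor. With the cosine, the shared wave passed without ΔRRE CT18 replicate 2 (adjusted p = 0.0484), and the wave in WT alone (adjusted p = 0.166) without CT2 replicate 2 (adjusted p = 0.0471). Without CT2 both passed (adjusted p = 0.0118 and 0.00830). *Prox1os*, an antisense RNA of the locus, was listed at 2.59 to 9.24 FPKM and *Hnf4aos*, antisense to *Hnf4a*, at 3.16 to 11.3 FPKM; neither had a wave that passed (adjusted p = 0.438 and 0.116). The libraries were made with a directional kit, and whether strand was used in counting is not given in the sources used here.

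**Figure D2:**
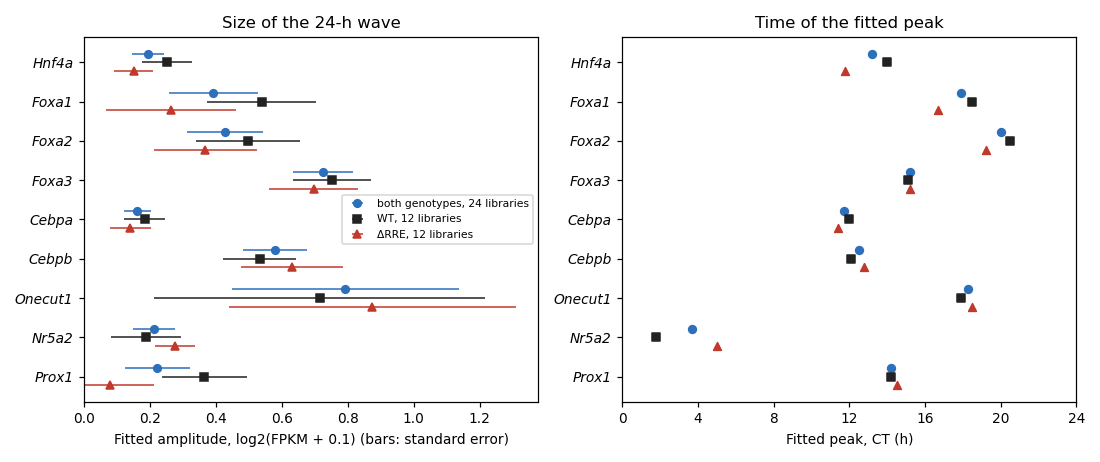
Left, amplitude of the fitted 24-h wave on the log2(FPKM + 0.1) scale with its standard error; right, CT of the fitted peak in hours. Blue circles are both genotypes, black squares WT and red triangles ΔRRE; *Foxa3* has a shared amplitude of 0.72 and *Nr5a2* is the 1 gene that peaks near CT3.7.

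When the genotypes were fitted apart, fewer factors passed. *Foxa3* and *Cebpb* did so in WT, 2 of 9 against 10.3% of all genes tested, and *Foxa3* and *Nr5a2* in ΔRRE, 2 of 9 against 4.57%. A looser rule, taken from the methods, asked for 3 criteria: p under 0.3, the highest of the 6 means more than 1.5 times the lowest, and the largest SD within 1.5 times their difference. With the harmonic p in place of that of BIO_CYCLE, 6 factors met them in WT (*Hnf4a*, *Foxa1*, *Foxa2*, *Foxa3*, *Cebpb* and *Prox1*), against 37% of all genes tested, and 4 in ΔRRE (*Foxa2*, *Foxa3*, *Cebpb* and *Onecut1*), against 35.4%. *Foxa2*, *Foxa3* and *Cebpb* met them in both. The highest time-point mean of *Cebpb* was 2.47 times the lowest in WT and 3.62 times in ΔRRE, and that of *Foxa3* 2.55 and 2.67 times.

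Passing in 1 genotype and not in the other does not show a difference, so the waves were compared directly. The difference in rhythm passed for 0 of 9 factors (adjusted p = 0.9999 for each by limma, unadjusted p from 0.288 to 0.960) and for 0.00889% of all genes tested, which was *Arntl* alone. Even *Arntl*, the edited gene, passed only narrowly (adjusted p = 0.0463 by limma). Not passing here therefore does not show that the waves of the factors were equal. An exact permutation test was run over all 23328 ways to relabel genotypes within time points (two-sided, smallest p possible 4.29e-05). The smallest of its 9 unadjusted p-values was 0.0722, for *Hnf4a*, where limma gave an unadjusted p of 0.329. The amplitude of the difference of *Hnf4a* was 0.15 on the log2 scale. *Cebpb*, *Foxa3* and *Cebpa* had exact permutation p-values of 0.7048, 0.9704 and 0.8597 for the wave.

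The level over the day was compared next. It passed for 0 of 9 factors and for 0% of all genes tested by limma; 2 of the 9 and 1002 of the 11244 genes had an unadjusted p under 0.05. *Cebpa* was 0.14 ± 0.06 lower in ΔRRE on the log2 scale (unadjusted p = 0.0308, adjusted p = 0.516; exact permutation p = 0.0308) and lower at 5 of 6 time points, with WT libraries at 173.6 ± 22.7 FPKM and ΔRRE libraries at 157.5 ± 17.3 FPKM (SD, n = 12). *Nr5a2* was 0.19 ± 0.09 higher in ΔRRE (unadjusted p = 0.0487, adjusted p = 0.554; exact permutation p = 0.0479) and higher at 5 of 6 time points, with WT libraries at 11.3 ± 2.18 and ΔRRE libraries at 12.8 ± 2.02 FPKM. After rescaling of the libraries the difference of *Nr5a2* was 0.15 (unadjusted p = 0.101) and that of *Cebpa* -0.18 (unadjusted p = 0.0116). In both cases the ranges of the genotypes overlapped, with 11 and 9 of the 12 ΔRRE libraries inside the WT range. *Foxa1*, *Foxa2* and *Foxa3* had differences of -0.30 ± 0.17, -0.19 ± 0.13 and -0.21 ± 0.13, each with a lower mean in ΔRRE at 5 of 6 time points, and *Cebpb* and *Prox1* of 0.15 ± 0.11 each. *Hnf4a* differed by 0.02 ± 0.05, with a sign that turned after rescaling of the libraries (-0.02). The median difference was -0.14 for the 9 factors and 0.04 for all genes tested.

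**Figure D3:**
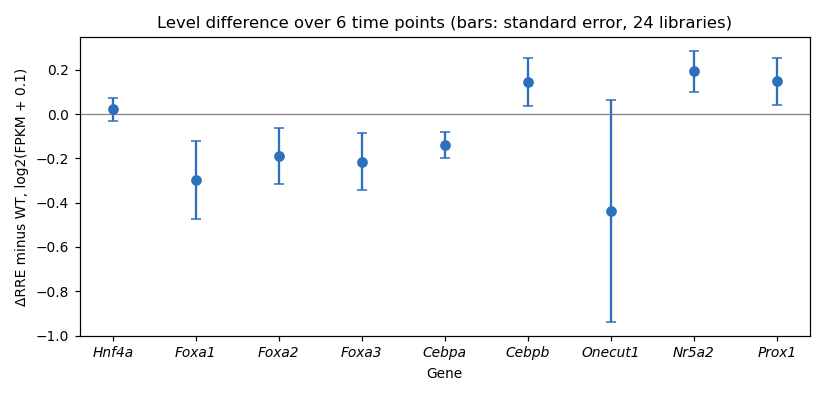
Difference in level, ΔRRE minus WT, on the log2(FPKM + 0.1) scale for each factor, with the standard error from the fit over 24 libraries and 6 time points. *Cebpa* at -0.14 and *Nr5a2* at 0.19 lie about 2 standard errors from 0, and *Onecut1* has the widest bar.

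*Onecut1*, at chr9:74861921-74891781 (plus strand), stood apart from the other factors by the spread within groups. In WT the 2 libraries held 1.49 and 8.60 FPKM at CT2, 1.407 and 20.01 at CT6, 1.69 and 20.9 at CT10, 5.465 and 11.01 at CT14, 11.4 and 11.9 at CT18 and 7.32 and 21.1 at CT22. In ΔRRE they held 7.37 and 5.55 at CT2, 1.09 and 2.59 at CT6, 2.00 and 19.0 at CT10, 4.19 and 3.64 at CT14, 6.65 and 33.8 at CT18 and 6.11 and 4.39 at CT22. The second library was higher at 6 of 6 time points in WT and at 3 of 6 in ΔRRE. The same counts held for *Foxa3*, and for *Foxa1* they were 5 of 6 and 3 of 6. They were 4 of 6 and 3 of 6 for *Foxa2* and *Prox1*, and 4 of 6 in each genotype for *Cebpa* and *Nr5a2*. For *Hnf4a* they were 3 of 6 in each genotype, and for *Cebpb* 3 of 6 and 2 of 6. Such counts were not taken over all genes. For *Onecut1*, the lowest and highest of the 24 libraries differed 31.0-fold, and the 2 WT livers of CT6 14.2-fold. The SD between libraries of a group was 1.49 on the log2 scale, larger than that of 99.7% of 2227 genes within 0.5 log2 of its level, where the median over all genes tested was 0.25. Its shared wave had a large amplitude and a large error (0.79 ± 0.34, peak CT18.3, adjusted p = 0.183), and its level differed by -0.44 ± 0.50 between genotypes. The relative depth of the 2 WT CT6 libraries was 0.8954 and 1.002.

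By the same measure, *Foxa1* (SD 0.49), *Foxa2* (0.37) and *Foxa3* (0.37) were more variable between livers than 94.5%, 89.7% and 89.8% of genes of like level. *Hnf4a* (0.09) and *Cebpa* (0.13) were at the other end, with only 4.43% and 22.9% of genes of like level below them, and *Cebpb* (0.22), *Nr5a2* (0.26) and *Prox1* (0.24) lay between.

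**Figure D4:**
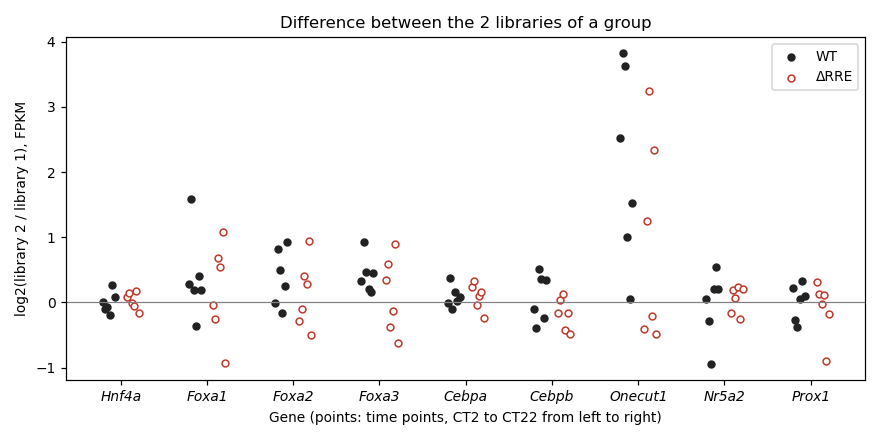
Log2 ratio of the FPKM of the second to the first library of each group (vertical axis) for the 9 factors, with filled black points for WT and open red points for ΔRRE, each from CT2 to CT22. *Onecut1* spreads most, up to 14.2-fold between the WT livers of CT6.

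Whether factors varied together between livers of the same group was asked after the values had been seen, and 1 pair passed. The deviations from the group means were correlated for all 36 pairs of factors over 24 libraries in 12 groups, with an exact permutation test over all 4096 exchanges of the 2 libraries within groups (two-sided, smallest p possible 0.000488) and adjustment over the 36 pairs. *Foxa1* and *Foxa2* had r = 0.830 (exact p = 0.000977, adjusted p = 0.0352) and Spearman's rho = 0.817 (exact p = 0.000977), and they moved the same way in 11 of 12 groups. Without the 2 groups with the largest difference in *Foxa1*, r was 0.690. After rescaling of the libraries, r was 0.831 and the adjusted p was 0.0879, so the pair no longer passed. The other 35 pairs of factors did not pass, and no share was computed for pairs among all genes. The next highest were *Foxa3* with *Cebpa* (r = 0.784, rho = 0.754, exact p = 0.0234 and 0.0322, adjusted p = 0.325) and *Foxa2* with *Onecut1* (r = 0.729, rho = 0.741, exact p = 0.0317 and 0.0249, adjusted p = 0.325). The second library was above its partner for *Foxa1*, *Foxa2*, *Foxa3* and *Onecut1* in 5 of 12 groups (WT CT6, CT10, CT18 and CT22 and ΔRRE CT18), and below it for all 4 genes in 1 (ΔRRE CT22). Of these 5, WT CT6 and ΔRRE CT18 had the widest gaps in *Foxa1*, 3.02-fold and 2.11-fold. When the second libraries of these 2 groups were left out, and not those of the other 3, 5 of 9 factors had a shared wave that passed, *Nr5a2* being lost (adjusted p = 0.0586), beside 2934 of all genes. In WT alone 4 of 9 passed beside 987 of all genes, and in ΔRRE alone 0 of 9 beside 306. These libraries were chosen by the values of the same factors, so the counts are a description only.

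**Figure D5:**
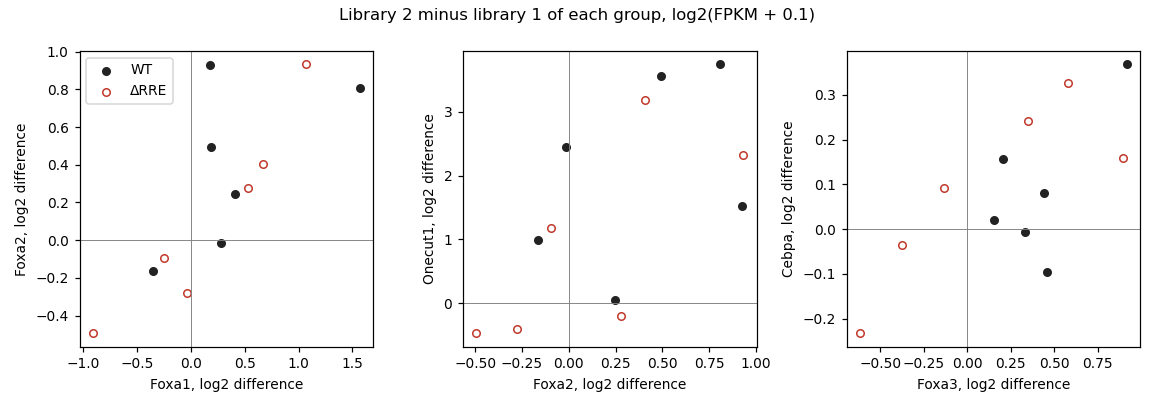
Difference between the second and first library of each group on the log2(FPKM + 0.1) scale for *Foxa1* against *Foxa2*, *Foxa2* against *Onecut1* and *Foxa3* against *Cebpa*, with filled black points for WT and open red points for ΔRRE groups. The first pair has r = 0.830 over 12 groups, and its points lie along a rising line.

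The genes whose pattern was most like each factor were named by Pearson's r on the log2 scale over the same 24 libraries, as a description, since the points share time of day and library. *Foxa3* was most like *Marveld1* (r = 0.900), the clock gene *Per2* (0.875) and *Noct*, a rhythmic deadenylase-like gene (0.873). *Cebpb* was most like *Pptc7* (0.911), followed by the clock gene *Per1* (0.883). For *Foxa1* the nearest gene was *Foxa2* (0.843), followed by *Gm11341* (0.815) and *Vmp1* (0.797). Within groups, the deviations of *Foxa1* had r = 0.933 with those of *Vmp1*, 0.830 with those of *Foxa2* and 0.813 with those of *Gm11341*. For *Foxa2*, *Gm15962* (0.886) came before *Foxa1* (0.843) and *Gm11967* (0.824). *Onecut1* was most like *Ces3b*, a carboxylesterase (0.826), *Serpina4-ps1* (0.788) and *Tuft1* (0.775). The deviations of these last 3 genes within groups followed those of *Onecut1* with r of 0.844, 0.831 and 0.854, and *Serpina4-ps1* ranged from 1.57 to 374 FPKM. *Hnf4a* was most like *C2cd2l* (0.831), *Ivns1abp* (0.7995) and *Man2a1* (0.792), and *Cebpa* like *Slc30a9* (0.813), *Amd1* (0.706) and *Gba2* (0.702). *Nr5a2* was most like *Taok3* (0.808), *Stag1* (0.784) and *Ppp6r3* (0.780), and *Prox1* like *Rhob* (0.786), *Fastkd1* (0.740) and *Bms1* (0.716).

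Other regulators of the liver programme gave a background for the 9 factors. Of 23 further liver transcription factors, 22 passed the filter and 12 of them (54.5%) had a shared wave, beside 30.6% of all genes tested. *Atf5*, a stress-responsive factor, had the smallest p (amplitude 0.81, peak CT2.5, adjusted p = 4.61e-06), and *Nr2f6* (0.25, peak CT1.1) and *Gata4* (0.45, peak CT21.2) were also among them. *Creb3l3* was the most abundant at 121.3 FPKM (0.20, peak CT11.8). Of 9 partners that bind or tag the factors, 4 (44.4%) had a shared wave, beside the same 30.6%. *Nr0b2* (SHP), which represses NR5A2 and HNF4A, was the most abundant and cycled with 0.67 and a peak at CT4.2 (adjusted p = 0.0215), close to the CT3.7 of *Nr5a2*. *Ddit3*, which pairs with C/EBP proteins (0.67, peak CT16.4), *Trib1*, which targets C/EBPα for degradation (0.31, peak CT13.8), and *Ep300* (0.20, peak CT19.4) were the others. In none of these genes did the wave or the level differ between genotypes at an adjusted p under 0.05.

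Among hepatocyte genes, 8 of 21 (38.1%) had a shared wave, beside 30.6% of all genes tested. *Slc2a2*, the glucose transporter of the liver, had 0.39 with a peak at CT10.6 (adjusted p = 0.000531). *Cyp8b1* and *Cyp7a1*, the bile acid enzymes that NR5A2 is known to regulate, had 0.79 and 0.84 with peaks at CT1.3 and CT14.4. *Tat*, which encodes an amino acid catabolic enzyme, had 0.54 with a peak at CT15.6, and *Ttr* had 0.19 with a peak at CT0.5. *Alb* had 0.14 (adjusted p = 0.265). For level, 6 of the 21 had an unadjusted p under 0.05, beside 1002 of all 11244 genes, and 0 an adjusted p under 0.05. Of the 6, *Igfbp1* (1.79), *G6pc* (0.71), *Pck1* (0.69), *F2* (0.13) and *F9* (0.12) were higher in ΔRRE on the log2 scale. *Slc2a2* was lower (-0.22).

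Markers of other cell types were listed for comparison. The 7 cholangiocyte markers, of a cell type that also uses *Onecut1* and *Foxa* genes, summed to 11.9 to 44.1 FPKM, mostly *Spp1*, and *Krt7* and *Cftr* stayed below 1 FPKM in every library; *Sox9* (0.66, peak CT22.6) and *Krt19* (0.48, peak CT22.5) had a shared wave. In the 5 groups whose livers differed over 4-fold in *Onecut1*, replicate 2 having more of it in each, this sum was 42.2 and 29.7 FPKM (WT CT2), 21.3 and 29.0 (WT CT6), 35.5 and 27.8 (WT CT10), 11.9 and 44.1 (ΔRRE CT10) and 23.6 and 35.1 (ΔRRE CT18). The sum was higher in the liver with more *Onecut1* in 3 of 5 groups, and in ΔRRE CT10 it was the lowest and the highest of all libraries. Endothelial markers (7 listed, sum 20.2 to 43.0 FPKM, most abundant *Clec4g*, called with *Stab2*), stellate cell markers (6 listed, 27.8 to 74.2, most abundant *Dcn*, called with *Lrat* and *Reln*), macrophage markers (7 listed, 13.7 to 71.2, most abundant *Cd5l*, none called) and lymphoid markers (5 listed, 0.361 to 3.19, most abundant *Ptprc*, none above the filter) were low beside the hepatocyte genes. Of 9 genes of pancreatic acinar cells, which also use several of the factors, 5 were listed at 0 in every library, among them *Cela3b*, *Cpa1*, *Pnlip* and *Prss2*, and *Cela1* alone passed the filter (8.42 to 38.3 FPKM, amplitude 0.44, peak CT3.0). The part of other cell types in the waves, and in the spread of *Onecut1* between livers, was not tested.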

How the data were processed

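Per the submitters' processing notes, reads were trimmed with Trimmomatic 0.39, aligned to mm10 with HISAT2 2.1.0 and quantified with StringTie 1.3.5. The authors deposited 1 table of FPKM per library, without pooling. Genes averaging at least 1 FPKM were put on the log2(FPKM + 0.1) scale and fitted with limma 3.58.1 in R 4.3.3 (trended prior, period 24 h, Benjamini-Hochberg over all 11244 genes). Fold changes on this scale understate those of low genes. Exact permutation tests and correlations were run in Python 3.11.15 with SciPy 1.17.1 and NumPy 2.4.6, and figures used matplotlib 3.10.9. The members, lists and tests were chosen with earlier results of these data known. Named are the 9 factors, *Arntl*, of each list the most abundant gene and up to 5 with the smallest p for the shared wave, and the 3 genes most like each factor; other named genes were chosen after their values were seen, and a few genes that this rule names are not reported here. Positions are from GENCODE M21 (GRCm38), promoters from RefSeq. The steps were tested on simulated data. Only relative depth could be read from the FPKM, so no counting error is given. P-values measure only the spread between these samples, which may be in part technical. The symbols *Tf* and *Foxa1os* were not found. No batch is given in the labels.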

Additional observations from a re-analysis of the deposited data

How the results depend on the processing

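The number of factors with a shared wave (6) stayed within 1.5 times the reported count (5 to 7) in 2 kinds of fit. These were every change of constant, filter, scaling, prior or model, and the fits without any 1 library. Without CT10 and without CT14, the count over all genes (3437) also fell, but stayed within 1.5 times that reported. The number of factors fell to 3 without CT10 and to 3 without CT14. For WT alone (2 factors, 1157 genes), it was 1 (519 genes) without a filter, 1 (361 genes) with time point as a factor, which was *Prox1* (adjusted p = 0.0386) in place of both reported factors, and 4 (739 genes), 1 (525 genes) and 1 (563 genes) without CT6, CT10 and CT14; 632, 715 and 670 genes passed without CT2, CT18 and CT22. Without single libraries, it was 1 to 4 factors and 741 to 1164 genes. For ΔRRE alone (2 factors, 514 genes), it was 0 (197 genes) without a filter, 1 after rescaling, 1 with a prior without trend, 1 with time point as a factor, which was *Cebpb* (adjusted p = 0.00902) in place of both, and 957 genes in 1 fit with a shared spread; it was 1 without CT2, 0 without CT6, and 0 without CT10 (257 genes), CT14 (142 genes) and CT18 (237 genes). Without single libraries, it was 0 to 2 factors and 299 to 554 genes. In the ΔRRE fits above without a count of genes, that count stayed within 1.5 times the 514 of the main fit. It rose after rescaling, where the number of factors fell. It fell with a prior without trend, with time point as a factor, without CT2 and without CT6. The second libraries of WT CT6 and ΔRRE CT18 were also left out, a choice made after seeing the data. The count was then 4 factors and 987 genes in WT and 0 factors and 306 genes in ΔRRE. By the criteria of the study, 9297 genes in WT and 8776 in ΔRRE passed without a filter and 2005 and 1997 with a mean of at least 5 FPKM, where the number of genes tested sets the count. The difference in rhythm of all genes (1, *Arntl*) was 4 with time point as a factor, and 0 with a constant of 0.01 FPKM, without a filter, with a mean of at least 5 FPKM, with a prior without trend, without CT2, CT6, CT18 or CT22 or those 2 libraries, and 0 to 1 without single libraries. The level of all genes (0) was 1 without CT6, 1 without those 2 libraries and 0 to 1 without single libraries. For the factors these differences stayed at 0 in all fits run. Where no cause is given, the cause was not tested.

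The replicate numbers were not taken to pair the livers, since the labels name no shared batch or animal and not every correlation passed 0.1: over 66 pairs of groups, the correlation of the deviations of same-numbered libraries ran from -0.138 to 0.305 (median 0.0669), above 0.1 in 20. With the replicate block, 1 factor passed in ΔRRE, *Nr5a2* having an adjusted p of 0.0525. The count of all genes passing in ΔRRE rose with the block, above the 514 of the main fit, and 0 genes differed in rhythm. *Onecut1* then had an adjusted p of 0.0756 for the shared wave, and the level of *Nr5a2* an unadjusted p of 0.0538. The counting error of single values was not estimated, since only FPKM were used, and 2 livers per group limit all comparisons at 1 time point.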
